A study of Mus musculus with 4 samples.

Results

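Perivascular cells are the mural cells that wrap blood vessels, pericytes around capillaries and smooth muscle cells around arterioles and veins. Here they were sought in dissociated cells of the proximal mouse lower incisor, and the members were chosen by which transcripts a barcode held. A barcode had to pass the quality filter (1000 or more genes detected, no more than 3% of its transcripts from hemoglobin genes and no more than 10% from mitochondria), and it was a member if it carried transcripts of at least 3 of Rgs5, Notch3, Kcnj8, Abcc9, Higd1b and Myh11, at most 2 of the endothelial genes Pecam1, Cdh5, Kdr, Emcn and Egfl7, and none of Ptprc or Epcam. The rule found 296 members among 11310 kept barcodes, out of 20502 in all. Of these, 92 came from WT replicate 1, 72 from WT replicate 2, 84 from Din-KO replicate 1 and 48 from Din-KO replicate 2. The data went against the name for much of this set. Of the members 125 held 2 or more transcripts of Rgs5, a widely used pericyte marker, and 171 held 0 or 1. Summed by library, the 171 carried transcripts of the dental mesenchyme, but some single barcodes among them had few. The set is therefore called the members below, and the name mural is kept for genes.

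Both genotypes were sampled at 15 days of age, as 2 WT and 2 Din-KO libraries, and each library counts as 1 replicate. The number of animals in a library, their sex and their strain are not given in the sources used here. All cells of Din-KO mice carry the same allele of Din: a gene trap was turned by germline Cre into one without exon 2 and without the selection cassette, and the lacZ reporter was kept under the Din promoter. The tissue was minced and digested with liberase and DNase, dead cells were removed, and transcripts were counted with the 10x Genomics 3' chemistry as unique molecular identifiers (UMIs). Values below are UMIs summed over the members of a library and scaled to counts per 1000000 UMIs of that sum (CPM), given in the order WT replicate 1, WT replicate 2, Din-KO replicate 1 and Din-KO replicate 2 unless stated. The members held 1149543, 1537612, 1241684 and 1276064 UMIs in all, with a median of 9704.5, 15104, 9804 and 20915 UMIs per barcode. The kept barcodes had medians of 9178, 11587.5, 8016 and 11486.5.

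For comparison, mesenchymal barcodes (6452) were kept barcodes with at least 4 of Col1a1, Col1a2, Col3a1, Lum, Prrx1 and Msx1, and endothelial barcodes (678) had at least 3 of the 5 endothelial genes, both without Ptprc or Epcam. Immune barcodes (2271) had a UMI of Ptprc. All 3 sets had at most 2 of the 6 rule genes. Between 4 and 12 barcode sequences occurred in both of any 2 libraries, and none of these was a member in both.

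As background, endothelial cells release PDGF-B, and the receptor Pdgfrb on mural cells holds them at the vessel. Notch3 receives signals from Jag1 on neighbouring cells and drives Heyl. Kcnj8 and Abcc9 form an ATP-sensitive potassium channel that sets membrane voltage and so vessel tone, Rgs5 shortens signals from G protein-coupled receptors, and Myh11 is the myosin heavy chain of smooth muscle. In the incisor, cells around vessels and nerves are among the proposed sources of pulp cells and odontoblasts.

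Rgs5 UMIs were unevenly spread over the members: most held 0 or 1, and a smaller number held many. Rgs5 (ENSMUSG00000026678, GRCm38 chr1:169655501-169695813, plus strand) was detected in 50 of 92, 41 of 72, 44 of 84 and 32 of 48 members. The members with at least 2 Rgs5 UMIs, called Rgs5-rich below, numbered 28, 34, 37 and 26, those with 0 or 1, called Rgs5-poor, 64, 38, 47 and 22, and the median member held 1, 1, 1 and 2 Rgs5 UMIs, while the highest held 201, 504, 878 and 1124. Among immune barcodes, which should lack the gene, 5.59%, 2.37%, 4.13% and 3.22% held an Rgs5 UMI at median depths of 9588, 6223, 9682 and 7052 UMIs. A single UMI was grouped with 0 here, but not every single UMI can be read as background. Exactly 1 was held by 22 of 92, 7 of 72, 7 of 84 and 6 of 48 members. In every library this was a larger share than in immune barcodes, and Rgs5 was itself a rule gene. The Rgs5-rich members held a median of 52, 63.5, 50 and 9 Rgs5 UMIs and at the lowest 2, so that in Din-KO replicate 2 many of them lie near the limit. Rgs5-poor members were deeper in every library, with medians of 10924, 18255.5, 10109 and 22168 UMIs. The Rgs5-rich members had 6693.5, 12623.5, 9167 and 16219, and the part of depth in their differences was not tested. The limit of 2 UMIs was chosen after the values were seen, and every value that rests on it is a description with no test.

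**Figure D1:**
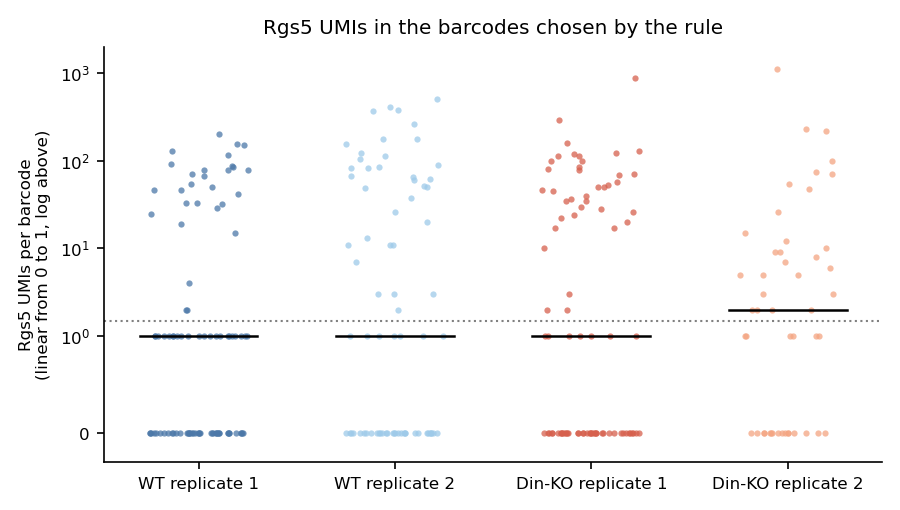
Rgs5 UMIs (y axis, linear from 0 to 1 and logarithmic above) in each of the 92, 72, 84 and 48 members of the 4 libraries. Points are barcodes, black lines are medians and the dotted line separates 0 or 1 UMI from 2 or more. In each library the members at 0 or 1 form a block, and the others are spread from 2 to 201, 504, 878 and 1124 UMIs.

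The most common way to meet the rule did not involve Rgs5. Notch3 with Kcnj8 and Abcc9 and no other rule gene was seen in 93 members (31.4%), Rgs5 with the same 3 genes in 49 (16.6%), Rgs5 with Notch3 and Abcc9 in 32 (10.8%), and Kcnj8 with Abcc9 and Myh11 in 21 (7.09%). Over all members Abcc9 was detected in 268, Notch3 in 260, Kcnj8 in 231, Rgs5 in 167, Myh11 in 84 and Higd1b in 30. The rule also leans on depth. When every member was thinned to 2000 UMIs, 23 of 92, 17 of 72, 25 of 83 and 7 of 47 still met it, with 1 member of each Din-KO library too shallow to thin.

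The rule genes themselves are described without a test, since they chose the members. Rgs5 was at 1608, 2399, 2555 and 1614 CPM in the members, with 54.6% of its UMIs in Din-KO replicate 2 from 1 barcode. In Rgs5-rich members it was at 9170.2, 6669.6, 6588 and 3418, in mesenchymal barcodes at 5.47, 7.37, 6.58 and 6.34 and in endothelial barcodes at 14.5, 24.3, 14.97 and 37.8. Notch3 (ENSMUSG00000038146, chr17:32120820-32166852, minus strand) was at 160.1, 215, 228 and 163 in the members. It was at 578, 458, 443 and 291 in Rgs5-rich members, at 72.6, 79.1, 91.97 and 48.9 in Rgs5-poor members and at 20.2, 16.3, 24.1 and 13.4 in mesenchymal barcodes. Both groups of members therefore lay above the mesenchyme for Notch3 in all 4 libraries, as the rule requires.

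The potassium channel genes Kcnj8 (chr6:142564837-142571614, minus strand) and Abcc9 (chr6:142587862-142702315, minus strand) are neighbours on chromosome 6. Kcnj8 was at 174, 125, 149.8 and 90.1 in the members against 28.5, 9.65, 24.97 and 15.7 in mesenchymal barcodes. Abcc9 was at 233, 203, 186 and 92.5 against 26.2, 22.3, 22.8 and 19.01. Higd1b (chr11:102835849-102838040, plus strand), a mitochondrial protein gene used as a pericyte marker, was seen at 136, 21.7, 102 and 29.96 in Rgs5-rich members and had no UMI in any of the other members. Myh11 (chr16:14194535-14291372, minus strand) was at 407, 208, 397 and 155 in the former and at 13.7, 27.4, 67.01 and 22.2 in the latter.

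At the edge of the rule the values changed by steps. Barcodes with exactly 3 rule genes (67, 39, 52 and 32) had Rgs5 at 310.1, 191, 554 and 246 and Ndufa4l2 at 43.6, 6.99, 83.8 and 13.4. Barcodes with exactly 2 (284, 106, 264 and 90), just outside, had Rgs5 at 22.4, 31.2, 54.2 and 31.6 and Ndufa4l2 at 2.56, 0.405, 4.79 and 3.75. Lum, a matrix proteoglycan gene of the mesenchyme, was at 1158, 945, 1109 and 875 just inside and 1259.8, 1273, 1508 and 969 just outside. On the endothelial side 7 members held 2 of the 5 endothelial genes, and 16, 14, 15 and 9 kept barcodes carried at least 3 mural and at least 3 endothelial genes and were left out.

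Among the other mural genes, 24 of 28 measured ones were higher in the members than in mesenchymal barcodes in all 4 libraries, against 18.3% of all genes. This count uses the same cells as the rule and supports nothing. In the Rgs5-rich members 24 of 29 were higher than in mesenchyme (14.9% of all genes) and in the others 8 of 20 (14.9% of all genes). For this list and others below, fewer genes were measured in the Rgs5-poor members. The denominators therefore differ, and the difference between the counts was not tested. The median log2 ratio to mesenchymal barcodes was 3.22 and 0.49, beside -0.06 and 0.01 over all genes.

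Ndufa4l2, a mitochondrial complex subunit gene that marks pericytes, was at 924, 288, 549 and 176 in the Rgs5-rich members, at 10.5, 5.07, 2.63 and 0 in the other members and at 0.543, 2.14, 1.24 and 6.24 in mesenchymal barcodes. The 3 sets overlapped only between the last 2. Mcam, an adhesion molecule of mural cells and endothelium, was at 357, 201, 310.03 and 138 in Rgs5-rich members, 4.21, 11.2, 6.57 and 7.41 in Rgs5-poor members and 1.90, 3.17, 2.25 and 4.95 in mesenchymal barcodes. Endothelial barcodes had Mcam at 177, 213, 188 and 187. Cspg4, the NG2 proteoglycan, was at 341, 132, 214 and 86.5 in the Rgs5-rich members. In the others it was at 10.5, 11.2, 6.57 and 14.8, within or below the 10.2 to 37.8 of the mesenchyme. Vtn, a marker of brain pericytes, had at most 5.02 CPM in any library of the Rgs5-rich members and was at 0 in the others.

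Pdgfrb, the PDGF receptor, was less sharply divided. It was at 522, 696, 352 and 288 in the Rgs5-rich members, at 90.5, 148, 102 and 138 in the others and at 49.7, 87.2, 69.8 and 74.3 in mesenchymal barcodes. The first set lay above the other 2 in every library. Ebf1, a transcription factor shared with B cells, was at 1366, 1305, 886 and 772 in Rgs5-rich members, 89.4, 256, 104 and 185 in Rgs5-poor members and 24.03, 56.1, 24.8 and 78.1 in mesenchymal barcodes. Foxs1, a forkhead factor of mural cells, was at 166, 111, 89.5 and 54.9 in Rgs5-rich members and 27.4, 33.5, 28.9 and 14.8 in the others.

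**Figure D2:**
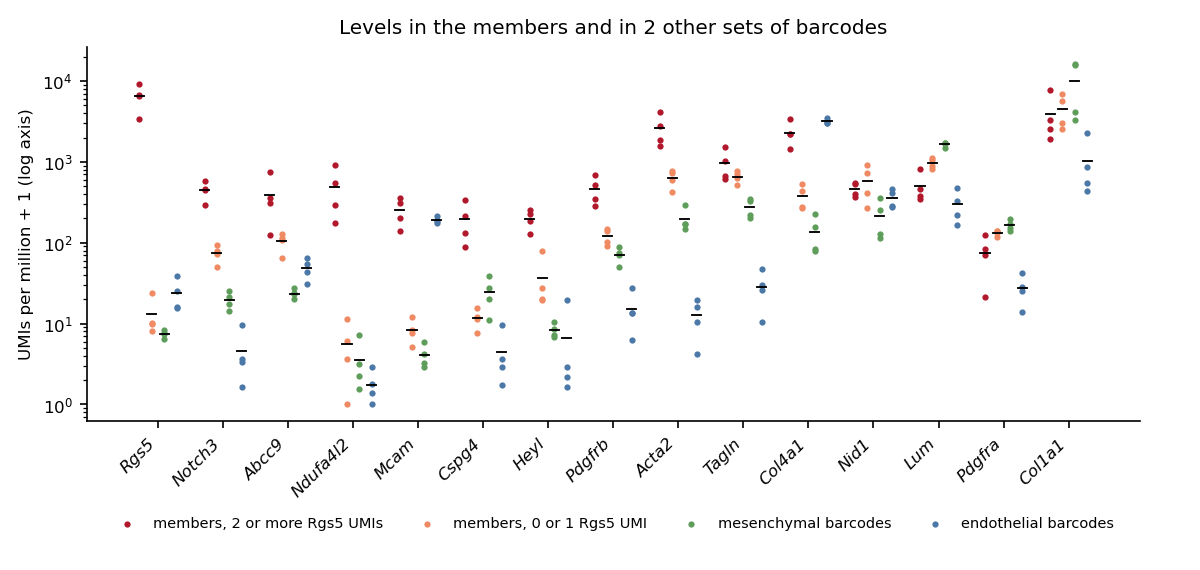
CPM plus 1 (logarithmic y axis) of 15 genes in Rgs5-rich members, Rgs5-poor members, mesenchymal barcodes and endothelial barcodes. Each point is 1 of 4 libraries and black lines are means. Rgs5, Ndufa4l2, Mcam and Cspg4 of the Rgs5-poor members lie near the mesenchymal values, and their Notch3, Acta2 and Tagln lie above them.

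Summed by library, the Rgs5-poor members carried the genes of the mesenchyme. Lum was at 1113, 817, 1042 and 892 in them, at 382, 348, 466 and 819 in the Rgs5-rich members and at 1689.9, 1487, 1731 and 1680.02 in mesenchymal barcodes. Pdgfra, the receptor that marks fibroblasts, was at 20.1, 83.3, 68.7 and 123 in Rgs5-rich members, 118, 132, 141 and 139 in Rgs5-poor members and 138, 196, 150.2 and 169.9 in mesenchymal barcodes. Col1a1, the collagen of bone, dentin and pulp matrix, was at 1898, 3301, 2555 and 7822 in Rgs5-rich members, 2579.9, 5722, 3046 and 6869 in Rgs5-poor members and 3329, 16253, 4086 and 16027 in mesenchymal barcodes. Lum and Col1a1 helped to choose the mesenchymal barcodes, whereas Pdgfra did not. For Lum each library had the order mesenchymal, members with 0 or 1 and Rgs5-rich members. For Col1a1 the libraries with replicate number 2 were far above the others in the mesenchyme. Without the 4 members rich in enamel and dentin transcripts that are described further on, Col1a1 was at 1898, 3301, 1010.5 and 3397 in Rgs5-rich members, below the Rgs5-poor members in every library.

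Most contractile genes had higher sums than the mesenchyme in both groups of members. Myh11, a gene of the rule, is not on this list. Of the list 18 of 22 measured genes were higher than in the mesenchyme in all 4 libraries for Rgs5-rich members, and 12 of 15 for the others, with the background shares of all genes given above. Acta2, the smooth muscle actin, was at 4188, 1868, 2751 and 1579 in the former, 422, 604, 773 and 735 in the latter and 145, 171, 168 and 292 in mesenchymal barcodes. Tagln, an actin-binding protein, was at 1537, 670.4, 1028 and 621 in Rgs5-rich members, 521, 708, 779 and 625 in Rgs5-poor members and 204, 346, 217 and 331 in mesenchymal barcodes. In every library the sums of both groups lay above the mesenchyme for both genes. In the 56, 30, 32 and 14 Rgs5-poor members without Myh11, Tagln was at 326, 513, 332 and 273 and Acta2 at 298, 394, 346 and 182, so that both were below the mesenchyme in Din-KO replicate 2 and above it in the other 3 libraries. Actg2, the enteric smooth muscle actin, was at 392, 45.3, 241 and 66.6 in Rgs5-rich members and at 3.16, 2.03, 5.26 and 0 in the others.

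Myh11 was detected in 8 of 64, 8 of 38, 15 of 47 and 8 of 22 Rgs5-poor members. These barcodes had Tagln at 1242, 1196, 1319 and 983, against 1537, 670.4, 1028 and 621 in the Rgs5-rich members. Myl9, the myosin light chain, was at 1079, 639, 1101 and 729 in them and at 1029.5, 678, 787 and 694 in the Rgs5-rich members. In these barcodes Ebf1 was at 4.95, 63.9, 104 and 77.7 and Mcam at 0, 3.55, 11.6 and 8.96, both below the Rgs5-rich values above. Nid1, a basement membrane linker, was at 628, 848, 710.04 and 1138 in them and at 402, 527, 368 and 541 in the Rgs5-rich members. They were chosen after the values were seen and are few, so these values are given without a name for the cells.

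The basement membrane that mural cells share with endothelium was represented by 23 genes, and 17 of 23 were higher than in mesenchyme in all 4 libraries in the Rgs5-rich members and 12 of 20 in the others, beside 14.9% of all genes in both. Col4a1, the type IV collagen chain, was at 3399.9, 2207, 2187 and 1443 in these members, 273, 535, 272 and 435 in the others, 81.6, 223, 78.3 and 156 in mesenchymal and 3029, 3210.1, 3044 and 3520.02 in endothelial barcodes. Col4a2, its partner, was at 1823, 1232, 1163 and 766 in Rgs5-rich and 205, 440.3, 251 and 443 in Rgs5-poor members. In 3 of 4 libraries Col4a1 was lower in Rgs5-rich members than in endothelium.

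Mural cells set vessel tone through receptors and second messengers. Of this list 19 of 24 genes were higher than in mesenchyme in all 4 libraries in the Rgs5-rich members and 8 of 18 in the others, beside 14.9% of all genes in both. Gucy1a1, a subunit of the nitric oxide receptor, was at 542, 306, 308 and 173 in Rgs5-rich members, 88.4, 89.3, 104 and 51.8 in Rgs5-poor members and 66.9, 33.1, 48.5 and 28.03 in mesenchymal barcodes. Ednra, the endothelin receptor of mural cells, was at 196, 197, 171 and 88.2 in Rgs5-rich members, 94.7, 92.3, 82.8 and 54.8 in Rgs5-poor members and 75.5, 40.3, 70.5 and 37.04 in mesenchymal barcodes. In every library both genes had this order. Ednrb, the receptor of the endothelium, was at 0, 1.81, 0 and 0 in Rgs5-rich members and 96.9, 75.2, 108 and 115 in endothelial barcodes. Ptger3, a prostaglandin receptor, was at 35.2, 38.1, 27.05 and 58.3 in Rgs5-rich and 2.10, 10.1, 3.94 and 26.7 in Rgs5-poor members.

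In the Notch pathway 6 of 12 genes were higher than in mesenchyme in all 4 libraries in the Rgs5-rich members and 5 of 9 in the others, beside 14.9% of all genes in both. The ligand gene Jag1 was at 341, 176, 187 and 113 in Rgs5-rich members, 31.6, 39.6, 36.8 and 32.6 in Rgs5-poor members and 14.6, 25.6, 17.5 and 30.4 in mesenchymal barcodes. The receptor gene Notch1 was at 121, 154, 62.4 and 99.9 in Rgs5-rich members, 47.3, 42.6, 60.4 and 45.9 in Rgs5-poor members and 12.4, 15.1, 14.8 and 17.9 in mesenchymal barcodes. The endothelial barcodes were higher, at 179, 215, 181 and 259.9. Heyl, the target of Notch3, was at 256, 225, 185 and 128 in Rgs5-rich members, 26.3, 77.1, 18.4 and 19.3 in Rgs5-poor members and 5.90, 9.43, 7.63 and 6.14 in mesenchymal barcodes. For each of the 3 genes the Rgs5-rich members were above the mesenchyme in every library.

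A list of 10 genes held stem cell markers and differentiation genes that the study names, and Runx2, which its text does not name. In the Rgs5-rich members 4 were higher and 4 lower than in mesenchyme in all 4 libraries, beside 14.9% and 14.6% of all genes. In the others 5 were higher and 3 lower, beside 14.9% and 12.5% of all genes. Thy1 was at 116, 103, 83.2 and 26.6 in Rgs5-rich members and 21.04, 7.10, 21.02 and 8.89 in the others. Gli1, which marks slowly cycling cells of the incisor, was at 15.1, 41.7, 35.4 and 21.6 in Rgs5-rich members, 44.2, 72.03, 52.6 and 51.8 in Rgs5-poor members and 31.5, 45.2, 49.02 and 33.8 in mesenchymal barcodes. In each library Gli1 was lowest in the Rgs5-rich members. Angpt1, the mural ligand of the endothelial receptor Tek, was at 20.1, 76.1, 18.7 and 183 in Rgs5-rich members, 97.9, 77.1, 108 and 121 in Rgs5-poor members and 73.1, 115, 63.6 and 86.3 in mesenchymal barcodes, and the ranges of the 3 sets overlapped. Angpt2, its counterpart, was at 70.3, 112, 76.99 and 88.2 in Rgs5-rich members, 9.47, 83.2, 28.9 and 37.03 in Rgs5-poor members and 6.29, 24.2, 10.8 and 25.5 in mesenchymal barcodes.

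Over all members, the 20 genes outside the rule with the largest ratio to all other kept barcodes in the library where that ratio was lowest began with Heyl, Ndufa4l2, Acta2, Actg2 and Col5a3. They also held Cygb, a globin of pericytes and stellate cells, Fabp7, Pdgfrb, Fmo1, Tmem100, Egfr, Pde3a, Gucy1a1, Olfml2a, Angpt2, Myl9, Mylk, Pgf, Olfm2 and H19. Cygb was at 96.6, 166, 118 and 147, and in all other kept barcodes at 17.7, 33.3, 20.4 and 23.9. Fabp7, a fatty acid-binding protein shared with Schwann cells, was at 117, 38.4, 34.6 and 101, and 91.5% of its UMIs in Din-KO replicate 2 came from 1 barcode.

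Markers of other cells were measured in the same sums. Of 13 endothelial markers every one had a UMI in the members, at a sum of 79.2, 66.99, 122 and 47.02 CPM, led by Esam. Of 12 macrophage markers all but Ptprc had one, at 64.4, 51.4, 53.96 and 107, led by Lyz2. Of 9 glial markers 7 did, at 128, 79.3, 142 and 249, led by Fabp7, with Foxd3 and Gfra3 at 0. The 10 genes of skeletal muscle and satellite cells summed to 12.2, 13.01, 8.86 and 20.4, led by Chodl, and the defining genes Pax7, Myod1 and Ckm were at 0. The 8 neutrophil markers summed to 25.2, 50.1, 13.7 and 18.02, led by S100a9, the 8 B cell markers to 313, 642, 416 and 468, almost all of it Ebf1, and the 6 red cell markers to 463, 483, 153 and 499, led by Hbb-bs. The 12 markers of dental mesenchyme summed to 6171, 8699, 6378 and 12794, led by Col1a1.

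Transcripts of enamel and dentin cells set a few members apart. The 12 markers of dental epithelium summed to 219, 643, 16154 and 356 and the 7 of odontoblasts to 164, 265, 381 and 2436. Amelx, the enamel protein amelogenin, had UMIs in 72 of 72 members of WT replicate 2 at 427 CPM with 7.32% of them in the richest barcode, a level that endothelial barcodes of that library also had (537). In Din-KO replicate 1 its level was 8363, with 98.9% of the UMIs in a single barcode of 84248 UMIs that also held 53 Rgs5 UMIs. At least 1% of UMIs came from Amelx, Ambn, Enam, Odam, Dspp, Dmp1, Bglap and Bglap2 in 2 members of Din-KO replicate 1 and 2 of Din-KO replicate 2, and in none of the WT libraries. All 4 were Rgs5-rich. The genotype test and the interaction are given with and without these 4 barcodes, and no doublet caller was run.

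Members were then ordered within each library by their share of UMIs from Acta2, Tagln, Myl9, Tpm2, Cnn1 and Myh11, and the 30, 24, 28 and 16 highest were set beside as many lowest. The ends differ in these 6 genes by choice, and no test was made. Of the 17 other contractile genes with a UMI in the members, 13 were higher at the upper end in all 4 libraries, beside 13.7% of all genes. Rgs5-rich members were 16, 12, 15 and 9 of the upper end and 6, 10, 8 and 8 of the lower. So the order was repeated among the Rgs5-rich members alone, with 14, 17, 18 and 13 barcodes at each end, and 12 of the 17 genes were then higher at the upper end in all 4 libraries, beside 7.06% of all genes.

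Actg2 led the contractile end, with log2 ratios of 7.28, 5.84, 7.69 and 6.17 over all members and 4.77, 6.86, 8.95 and 6.78 among the Rgs5-rich members. Vcl, the vinculin of focal adhesions, had ratios of 1.89, 2.17, 3.01 and 1.91 over all members and 0.63, 1.79, 2.04 and 1.19 among the Rgs5-rich members. Tpm1, a tropomyosin, had ratios of 1.96, 2.16, 2.37 and 1.81 over all members and 2.04, 1.68, 2.18 and 0.86 among the Rgs5-rich members. Both were above 0 in every library in both orders. Hhip, an inhibitor of hedgehog signals, had 4.67, 3.19, 3.26 and 2.56 over all members but 1.10, -0.18, -0.26 and 0.92 among the Rgs5-rich members, where the sign varied between libraries.

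Genes of cell division were higher at the contractile end as well. Of 15 proliferation genes 12 were higher in all 4 libraries over all members, and 10 of 15 among the Rgs5-rich members, against the same shares of all genes. Birc5, a survivin of the mitotic spindle, had log2 ratios of 7.07, 2.18, 2.14 and 6.05 over all members and 0.87, 3.12, 3.93 and 3.07 among the Rgs5-rich members. Prc1, a spindle protein, had 3.33, 3.62, 2.10 and 6.79 over all members and 5.49, 4.28, 4.33 and 4.41 among the Rgs5-rich members. The upper end was also deeper, with median UMIs per barcode of 10822.5, 15470.5, 17514.5 and 21717 against 9266, 13284.5, 8220 and 12974. Among the Rgs5-rich members the medians were 7626.5, 10633, 10659.5 and 20166 at the upper end against 5064.5, 15053, 6398 and 15161, so that in WT replicate 2 the lower end was deeper. The part of depth in these differences was not tested.

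The opposite end was led, in log2 ratio, by Kcnk2, a potassium channel, at -3.88, -4.16, -3.26 and -3.53, and by Enpp6 at -3.18, -4.67, -3.24 and -3.91. Among the Rgs5-rich members Kcnk2 was at -1.21, 0.00, -0.72 and -0.14 and Enpp6 at 0.54, 1.35, -1.09 and 3.57. Tgfbi, a matrix protein induced by TGF-beta, was at -2.19, -3.18, -3.23 and -2.23 over all members and -0.41, -0.48, -0.87 and -0.92 among the Rgs5-rich members, below 0 in every library in both orders. Rgs5 was at 0.47, 0.48, 1.86 and 2.82 and Notch3 at -0.24, 0.25, 0.88 and 1.00 over all members.

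**Figure D3:**
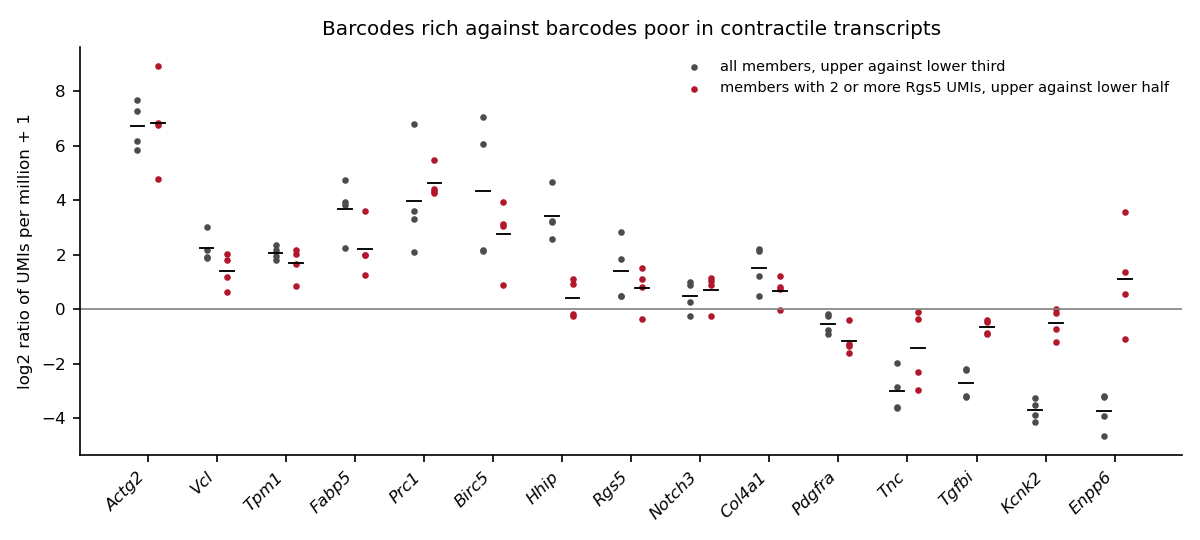
Log2 ratio (y axis) of barcodes rich against barcodes poor in 6 contractile transcripts for 15 genes, over all members (grey) and over Rgs5-rich members (red). Points are the 4 libraries and black lines their means. Actg2, Vcl, Tpm1, Fabp5, Prc1 and Birc5 are above 0 in every library in both orders, whereas Kcnk2 and Enpp6 lie at -3.18 or lower only over all members.

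At full depth the share of members among kept barcodes did not separate the genotypes. It was 2.36% in WT replicate 1 (95% Wilson interval 1.93 to 2.88), 4.62% in WT replicate 2 (3.68 to 5.77), 1.84% in Din-KO replicate 1 (1.49 to 2.27) and 3.77% in Din-KO replicate 2 (2.86 to 4.97), where the intervals cover counting error only. The means were 3.49% ± 1.60 in WT and 2.80% ± 1.37 in Din-KO (SD, n = 2 each), a difference of -0.68 percentage points (exact permutation test, two-sided p = 0.667). The smallest p that 2 against 2 allows is 0.333. In each genotype the library with replicate number 2 had the higher share. Without WT replicate 2 or without Din-KO replicate 1 the difference turned to 0.45 and 0.29 points. Rgs5-rich members made up 0.717%, 2.18%, 0.809% and 2.04%. Among kept barcodes thinned to the same depth, as described above, those meeting the rule made up 0.644%, 1.23%, 0.550% and 0.636%. Both Din-KO shares then lay below both WT shares, though Din-KO replicate 2 was only just below WT replicate 1. The exact permutation test gave p = 0.333, the smallest possible. The thinned shares rest on 25, 19, 25 and 8 barcodes. Shares of barcodes depend on dissociation and on the other cells captured.

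Din itself (listed as din, ENSMUSG00000059920, chr16:64751751-64771161, minus strand) gave 44, 47, 26 and 38 UMIs in the members, which is 38.3, 30.6, 20.9 and 29.8 CPM. Both Din-KO libraries were below both WT libraries by little, with a log2 fold change -0.48 ± 0.33 (SE), adjusted p = 1.00 in edgeR's quasi-likelihood test. The chemistry reads the 3' end of transcripts and the allele lacks exon 2, so these counts do not check the deletion.

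The sexes were not balanced between the genotypes. Transcripts of the Y-linked genes Ddx3y, Eif2s3y, Kdm5d and Uty with at most 1 Xist UMI marked 37 of 84 and 27 of 48 members of the Din-KO libraries and none of the 164 WT members. Xist, the RNA of the inactive X chromosome, was at 1145, 1164, 503 and 559. Sex and genotype therefore cannot be told apart in the comparison of all members, and it was repeated with the 85, 67, 30 and 15 members that had 3 or more Xist UMIs but none from the Y chromosome. Both kinds of member were present in each Din-KO library, so each of these libraries held cells of both sexes.

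No gene differed between Din-KO and WT in the members at an adjusted p under 0.05 in edgeR (10070 genes tested, 0% called), and 223 had an unadjusted p under 0.05, 177 of them higher (1.76% of genes) and 46 lower (0.457%) in Din-KO. DESeq2 called 13 genes higher and 1 lower (0.139% of 10070 genes), and 3 of the 13 were the Y-linked Ddx3y, Eif2s3y and Uty. The count was sensitive to single libraries: edgeR called 13 genes without WT replicate 1, 7 without WT replicate 2, 24 without Din-KO replicate 1 and 63 without Din-KO replicate 2. Without the 4 barcodes rich in enamel and dentin transcripts edgeR called no gene of 9983 (198 at an unadjusted p under 0.05) and DESeq2 called 12 higher and 1 lower. With a library left out as well, edgeR then called 2, 0, 22 and 23 genes in the same order. With the replicate number as a block, edgeR called 49 genes in all members, 43 of them higher in Din-KO. The labels give the numbers no shared batch, but the deviations of WT and Din-KO replicate 1 from their group means correlated at 0.521 over the 10070 genes. The Din-KO values both lay above the WT values for 15.6% of the genes tested and below both for 10.9%.

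Cdkn1a, the cell cycle inhibitor p21 and a target of p53, had the smallest p. Cdkn1a (ENSMUSG00000023067, chr17:29090976-29100727, plus strand) was at 20.01, 22.8, 301 and 304 CPM, from 23, 35, 374 and 388 UMIs in 13, 17, 41 and 34 members. The 2 genotypes did not overlap (log2 fold change 3.78 ± 0.26 (SE), adjusted p = 0.0655 in edgeR, and 1.81e-15 in DESeq2). In edgeR Cdkn1a was called without a filter on low counts and with a replicate block. The difference was as large among the Xist members alone (3.79, edgeR adjusted p = 0.0438) and among members with at least 4 rule genes (3.72). In Rgs5-rich members Cdkn1a was at 40.2, 28.99, 479 and 319.5 and in the others at 15.8, 19.3, 189 and 290.3. Mesenchymal barcodes had 84.9, 131, 179.9 and 369.6 and endothelial barcodes 39.3, 78.3, 243 and 206, also higher in both Din-KO libraries.

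Most of the p53 target genes tested lay on the same side. Of 21 tested, Cdkn1a included, 16 had both Din-KO values above both WT values, beside the 15.6% of all genes, and 1, Rrm2b, had both below. The median log2 fold change was 0.95, beside -0.01 over all genes, and 1.13 in the Xist members. It was 0.59 in mesenchymal and 0.70 in endothelial barcodes. The list was chosen with earlier results of these data known. Zmat3, an RNA-binding protein gene, was at 8.70, 15.6, 43.5 and 53.3 (1.93 ± 0.36 (SE)). Phlda3, an inhibitor of Akt, was at 93.95, 115, 195 and 236 (1.00 ± 0.25 (SE)). Ccng1, a cyclin, was at 18.3, 27.3, 43.5 and 90.9 and Bax, a mediator of apoptosis, at 181, 158, 256 and 273. For each of these 4 genes the Din-KO values were both above the WT values, and the edgeR adjusted p of each was 1.00.

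**Figure D4:**
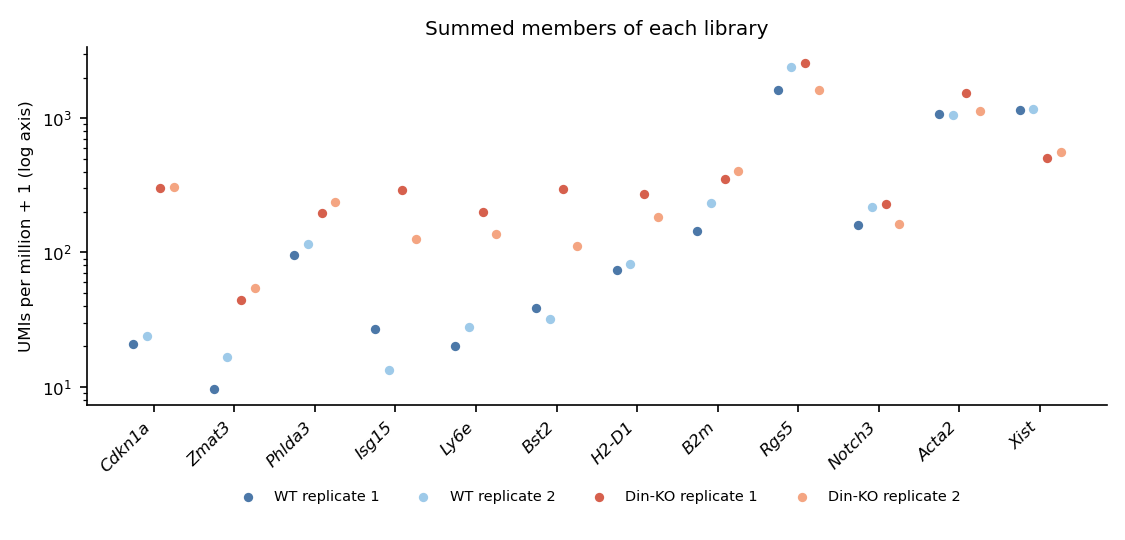
CPM plus 1 (logarithmic y axis) of 12 genes summed over the members of each library, with WT replicates in blue and Din-KO replicates in red. For Cdkn1a the WT libraries are at 20.01 and 22.8 and the Din-KO libraries at 301 and 304, while for Rgs5 the 2 genotypes overlap, between 1608 and 2555.

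Of the 177 genes that were higher at an unadjusted p under 0.05, 24 were on the list of interferon-stimulated genes. Of 30 tested, 29 had a fitted log2 fold change above 0, 28 had both Din-KO values above both WT values and 24 had an unadjusted p under 0.05, beside 15.6% and 1.76% of all genes. In members with at least 4 rule genes 14 of 21 lay above, beside 16% of all genes, and 8 had such a p, and without the deepest barcodes 24 of 27 lay above, beside 13.2%, and 15 had such a p. Irf1 was at 23.5, 21.5, 24.2 and 21.9, with nearly equal genotypes. The median log2 fold change was 1.24, and it was 1.92 over the 28 genes tested in the Xist members, 0.90 in mesenchymal and 1.99 in endothelial barcodes. This list too was chosen with earlier results known, none of its genes passed the edgeR threshold in the main fit, and DESeq2 called 5 of them. Without a filter on low counts edgeR called Isg15, Ifit1 and Rtp4. With a replicate block its calls held Isg15, Ifit1, Bst2 and H2-D1.

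Isg15, a ubiquitin-like protein, was at 26.1, 12.4, 292 and 125 (log2 fold change 3.41 ± 0.57 (SE), adjusted p = 0.895 in edgeR, 8.44e-06 in DESeq2). It had UMIs in 21, 13, 39 and 29 members. Ifit1, which binds viral RNA, was at 5.22, 1.95, 114 and 40.8, and Bst2, tetherin, at 37.4, 31.2, 296 and 110.5. B2m, the light chain of class I MHC, was at 143, 233, 352 and 401 and H2-D1, a heavy chain, at 73.1, 80.6, 269 and 183. Ly6e, a membrane protein induced by interferon, was at 19.1, 26.7, 197 and 136 (log2 fold change 2.81 ± 0.33 (SE), adjusted p = 0.338 in edgeR). In all 6 genes the genotypes did not overlap.

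Part of these values came from single barcodes. In Din-KO replicate 1 the richest member for each gene held 53.9% of the Isg15, 57.04% of the Ifit1 and 49.3% of the Bst2 UMIs. In that library 1 member of 36186 UMIs carried 347 interferon UMIs per 10000 and the next 94.0, against a median of 21.6. The medians over members were 7.88, 11.6, 21.6 and 19.8 per 10000. Without the member with the highest such share in each library, 25 of 28 interferon genes had both Din-KO values above both WT values, beside 15.4% of all genes (median log2 fold change 1.05), 15 had an unadjusted p under 0.05, and Isg15 was at 23.8, 12.4, 139 and 103.

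The promoters of these genes are shown because so many of the genes lay on the same side. RefSeq sequences of GRCm38.p6 from 250 bases before to 50 after the annotated start were at hand for 31 of the 43 listed interferon genes, and 16 of them (51.6%) held, on either strand, the core of the interferon-stimulated response element (GAAA, any 2 bases, GAAA), against 3.49% of 27025 promoters. Capitals mark these matches. The windows are chr4:156200769-156201068, minus strand for Isg15, with 3 overlapping matches, chr19:34640639-34640938, plus strand for Ifit1, with 2 on the opposite strand, and chr8:71537423-71537722, minus strand for Bst2, with 2 that overlap.
Isg15: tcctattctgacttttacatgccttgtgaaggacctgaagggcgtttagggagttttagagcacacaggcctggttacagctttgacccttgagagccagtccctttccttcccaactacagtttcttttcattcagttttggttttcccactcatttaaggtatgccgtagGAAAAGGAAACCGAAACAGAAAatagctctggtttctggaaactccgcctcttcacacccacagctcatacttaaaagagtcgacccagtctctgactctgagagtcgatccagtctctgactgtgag
Ifit1: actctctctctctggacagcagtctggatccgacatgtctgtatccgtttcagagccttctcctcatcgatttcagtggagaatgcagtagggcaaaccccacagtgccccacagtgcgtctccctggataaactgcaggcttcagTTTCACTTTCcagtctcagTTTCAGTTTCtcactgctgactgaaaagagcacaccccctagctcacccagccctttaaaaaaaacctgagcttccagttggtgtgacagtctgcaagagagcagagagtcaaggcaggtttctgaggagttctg
Bst2: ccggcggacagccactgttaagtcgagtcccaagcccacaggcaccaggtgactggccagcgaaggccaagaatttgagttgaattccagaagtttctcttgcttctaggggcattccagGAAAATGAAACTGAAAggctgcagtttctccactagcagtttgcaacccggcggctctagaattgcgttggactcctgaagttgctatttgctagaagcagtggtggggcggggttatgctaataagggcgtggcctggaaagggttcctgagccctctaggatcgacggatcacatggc
In the same windows, on either strand, the CArG box was in 1 of 20 promoters of contractile genes (5%), against 1.57% of all promoters. The RBPJ core (TGGGAA) was in 4 of 13 promoters of the Notch pathway (30.8%) and in 7 of 19 of the other mural genes (36.8%), against 25.5% of all promoters. A match is a description of the letters and says nothing of what binds there.

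For the genes of the rule only the values are set side by side, with no test. In Rgs5-rich members 4 of the 6 rule genes lay below in both Din-KO libraries, beside 13.6% of all genes. Without the 4 barcodes rich in enamel and dentin transcripts 0 of 6 did, beside 10.7%. Over all members Rgs5, Notch3 and Kcnj8 overlapped between the genotypes at the levels given above. Abcc9, at 233, 203, 186 and 92.5, was lower in both Din-KO libraries. Acta2, at 1074, 1057, 1538 and 1132, had a log2 fold change of 0.28 ± 0.26 (SE), and Pdgfrb, at 165, 345, 199 and 208, -0.35 ± 0.36 (SE). For Acta2 the Din-KO values both lay above the WT values, and for Pdgfrb the genotypes overlapped. Neither gene had an adjusted p under 0.05 in edgeR. Of 27 other mural genes tested 1 had both Din-KO libraries above and 2 both below the WT libraries, beside the 15.6% and 10.9% of all genes (median 0.11, and -0.18 in members with at least 4 rule genes), and of 19 contractile genes 5 and 1 (median 0.28, and -0.05 in members with at least 4 rule genes). In the Rgs5-rich members the medians of both lists, described without a test further on, were below 0. Among the Xist members 11 of 26 mural genes lay above and 2 below (median 0.44), and 11 of 19 contractile genes above and 0 below (median 0.38), beside 16.9% and 12.2% of all 8564 genes.

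Steap4, a metalloreductase gene found in pericytes and fat, was the mural gene furthest towards WT, at 37.4, 52.7, 21.7 and 18.8 (log2 fold change -1.19 ± 0.30 (SE), adjusted p = 1.00 in edgeR), with both Din-KO values below both WT values. It was also lower in the Xist members (-1.61). Id4, an inhibitor of helix-loop-helix factors, was at 177, 161, 109.5 and 86.99 (-0.83 ± 0.26 (SE)). Ibsp, a bone sialoprotein that odontoblasts and osteoblasts make, was at 149, 349, 70.1 and 21.9, and it was the gene that DESeq2 called lower (adjusted p = 0.0217). Its log2 fold change in edgeR was -2.46, and it turned to 0.55 in members without endothelial transcripts. A single member held 52.05, 59.6, 41.4 and 71.4% of its UMIs in the 4 libraries.

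**Figure D5:**
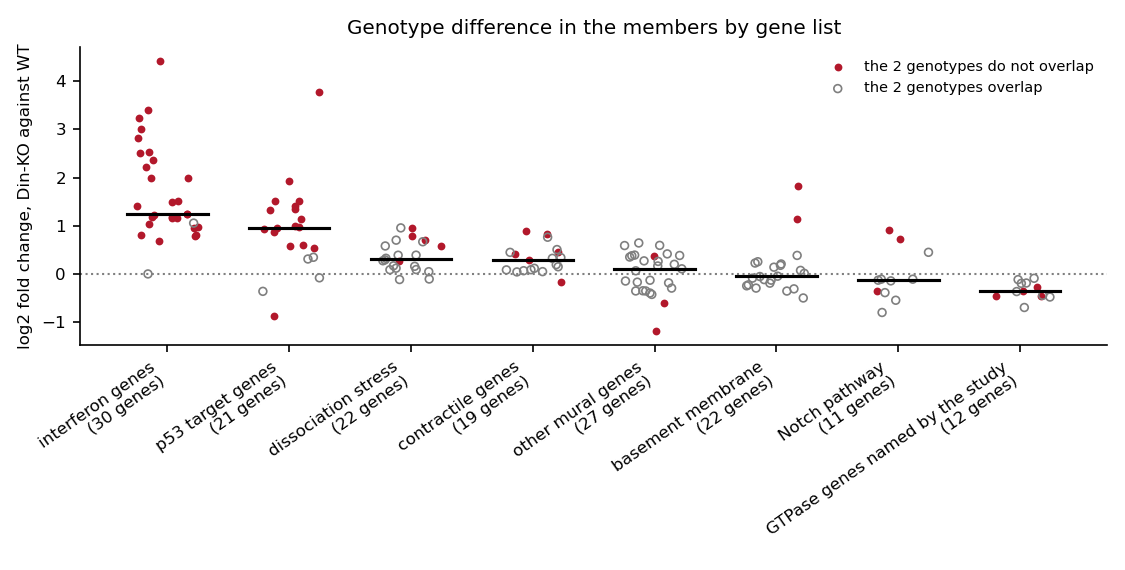
Log2 fold change of Din-KO against WT (y axis) for the tested genes of 8 lists in the summed members, 1 point per gene. Filled red points are genes whose libraries do not overlap between the genotypes, black lines are list medians and the dotted line is the median of all genes tested. The medians of the interferon and p53 lists are 1.24 and 0.95, and that of the mural list is 0.11 over all members.

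The other lists are to be read beside the same 15.6% of all genes above and 10.9% below. Of 11 Notch pathway genes 2 had both Din-KO libraries above and 1 both below (median -0.13), of 22 basement membrane genes 2 and 0 (median -0.05), and of 18 genes of vessel tone 3 and 1 (median -0.07). Of 23 genes of PDGF, angiopoietin, VEGF and TGF-beta signals 4 lay above and 1 below (median 0.06), and of 13 chemokines and growth factors 4 and 0 (median 0.22). Of 6 RGS regulators 3 and 1 did so (median 0.53), and of 15 proliferation genes 1 and 2 (median 0.02). Genes induced by tissue dissociation had a median of 0.31, with 5 of 22 above and 0 below. The 4 tested markers of odontoblasts had a median of 2.75 (3 above, 1 below) and the 4 of dental epithelium 2.51 (1 above), and without the 4 barcodes rich in enamel and dentin transcripts the medians were -0.34 over 3 and -0.27 over 4 genes. Some of these markers were among the genes that chose those barcodes. Fos, an immediate early gene, was at 132, 377, 310.1 and 695, so its genotypes overlapped. The part of dissociation in the other results was not tested.

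The lists were also described within the Rgs5-rich members. The values are medians of the log2 ratio of the mean CPM of Din-KO to that of WT, given with no test, beside a median of 0.04 over all genes tested. The median was -0.51 for the 27 other mural genes, of which 1 had both Din-KO libraries above and 8 both below the WT libraries, beside 16.7% and 13.6% of all genes. It was -0.23 for contractile genes (2 above and 3 below of 19), -0.50 for basement membrane genes (1 and 7 of 22), -0.43 for genes of vessel tone (1 and 4 of 18) and 0.71 for proliferation genes (6 and 0 of 15). Without the 4 barcodes rich in enamel and dentin transcripts, which are all Rgs5-rich, the medians in the same order were -0.35, -0.01, -0.31, -0.21 and 0.98 beside 0.08 over all genes, and 6 mural, 0 contractile, 2 basement membrane and 0 vessel tone genes were then below in both Din-KO libraries, beside 10.7% of all genes. In the Rgs5-poor members the medians were -0.02, 0.14, 0.03, -0.02 and -0.22. The interferon and p53 medians were above 0 in both groups, at 1.04 and 0.93 in the Rgs5-rich and 1.53 and 1.05 in the Rgs5-poor members. Din-KO replicate 2 had the lowest median of Rgs5 UMIs among its Rgs5-rich members, and the part of this in the values was not tested.

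The study names 12 genes of GTPase regulation, and all 12 were tested here. In the members all had a negative log2 fold change (median -0.36), none had an unadjusted p under 0.05, and 4 had both Din-KO values below both WT values, beside 10.9% of all genes. In members with at least 4 rule genes the median was 0.04 over 10 genes, and with members thinned to 2000 UMIs it was 0.03 over 7 genes. The median log2 ratio of means was 0.01 in the Rgs5-rich and -0.34 in the Rgs5-poor members. The study chose these genes on the same samples, so their direction is not independent evidence. Rgs3, a relative of Rgs5, was at 233, 189.9, 171 and 148 (-0.45 ± 0.26 (SE)) and Dlc1, a GTPase-activating protein, at 104, 127, 109 and 99.5 (-0.19 ± 0.24 (SE)). The libraries of Dlc1 overlapped and those of Rgs3 did not.

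Whether the genotype difference of the members departed from that of the mesenchyme was tested as an interaction, with the library as a block. Of 13705 genes 2 were called (0.0146%), both with a larger Din-KO excess in the members. They were Bglap (chr3:88383501-88384464, minus strand), osteocalcin of dentin and bone, and its neighbour Bglap2 (chr3:88377736-88378699, minus strand), near-identical copies between which reads may be split, so that neither value is certain. Bglap was at 5.22, 103, 138 and 2188 in the members and 213, 5164, 429 and 6118 in mesenchymal barcodes (interaction 4.01 ± 0.17 SE on the log2 scale, edgeR adjusted p = 6.82e-05), and Bglap2 was at 3.48, 26.01, 54.8 and 949.8 (4.36 ± 0.32, adjusted p = 0.00374).

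The Bglap values rested on the 4 barcodes rich in enamel and dentin transcripts. One barcode held 95.3% of the Bglap UMIs of Din-KO replicate 1, and 1 held 49.3% in Din-KO replicate 2. Without the 4 barcodes Bglap was at 5.22, 103, 6.99 and 81.3 and the interaction was -0.60 (adjusted p = 1), and no gene of 13778 was called in edgeR, with 491 at an unadjusted p under 0.05. Bglap and Bglap2 were among the genes that chose these barcodes, all from Din-KO libraries. A lower Din-KO level without them was therefore set by that choice and is no test. Leaving out a library gave 8 calls without WT replicate 1, 1 without WT replicate 2, 8 without Din-KO replicate 1 and 31 without Din-KO replicate 2, and without the 4 barcodes these counts were 30, 11, 1 and 1. Cdkn1a had an interaction of 2.52 ± 0.36 (adjusted p = 0.417) and 2.36 without the 4 barcodes, short of the threshold in both. It was among the genes called without a filter on low counts.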

How the data were processed

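Single-cell transcripts of 2 WT and 2 Din-KO libraries were processed by the authors with CellRanger 6.0.2 on mm10 (GRCm38) per the labels, and the UMI counts per gene and barcode that the authors deposited were used as they stand, without their later clustering. Libraries held 32198098 to 54348039 UMIs in all, and sums over members 1149543 to 1537612, which limits what low genes can show. Members, lists and tests were chosen with earlier results of these data known. UMIs were summed over the members of each library, since the library is the replicate. The sources used here do not say whether the 2 libraries of a genotype came from separate animals, so p-values measure the spread between these libraries only.

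Genotypes were compared with edgeR 4.0.16 (R 4.3.3; filterByExpr, TMM, quasi-likelihood test, Benjamini-Hochberg at 0.05) and with DESeq2 1.42.0, and the interaction of genotype and cell set was fitted with the library as a block. Descriptive log2 ratios used CPM with a pseudocount of 1. Both tools were tested on simulated data with 200 changed genes. Genes were named by rule: the genes of the member rule, Din and sex genes, the 6 most abundant genes of each list and its 4 with the largest genotype difference, the 20 with the highest ratio to other barcodes (at least 50 CPM), the 10 in each direction with the smallest genotype p, the 12 GTPase genes, the 10 at each contractile end and the 5 in each direction of the interaction. Angpt1, Ednrb, Foxs1, Mcam, Pdgfra and Vtn, and exceptions within a list (Irf1, Rrm2b and markers at 0), were named after their values were seen. Many of the genes that this rule gives are summarised by counts and not named, and 1 list is not reported here. Alternatives tried were DESeq2 and its size factors, no filter on low counts, a replicate block, each library left out, stricter or other member rules, thinning to 2000 UMIs and other comparison cells. Of 32285 gene identifiers 32158 matched the annotation.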

Additional observations from a re-analysis of the deposited data

Results flagged for a closer look

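Bglap and its near-identical neighbour Bglap2 stood out because their genotype difference in the members departed from that in mesenchymal barcodes, by 4.01 and 4.36 on the log2 scale (edgeR adjusted p = 6.82e-05 and 0.00374). Without the 4 Din-KO members with at least 1% of UMIs from enamel and dentin genes, the values were -0.60 and -0.01 (adjusted p = 1 for both). Both genes were among those that chose these members, so a fall was set by that choice.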

How the results depend on the processing

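The count of genes called between the genotypes, 0 in edgeR, was 14 with DESeq2, 12 without a filter on low counts, 1 without members with 3 mesenchyme genes and 1 among the Xist members alone, and it ranged from 7 to 63 when 1 library was left out. Without the 4 tooth-rich members it was 13 with DESeq2 and ranged from 0 to 23 with a library left out, where leaving out WT replicate 1 gave 2 and Din-KO replicate 1 gave 22. With a replicate block it was 49. The numbers pair only 2 libraries of each genotype and the labels give them no shared batch, and the deviations of libraries with number 1 correlated at 0.521 over 10070 genes. The count was 0 with DESeq2 size factors, with at least 4 rule genes, without endothelial transcripts, without the deepest barcodes, after thinning, and without the members rich in tooth or interferon transcripts (unadjusted p under 0.05 in 224, 152, 152, 178, 37, 198 and 204 genes). The interaction count of 2 was 0 without the library block, 0 against endothelial barcodes, 85 without a filter, 0 without the 4 tooth-rich members, and 1 to 31 with a library left out, or 30, 11, 1 and 1 without WT replicate 1, WT replicate 2, Din-KO replicate 1 and Din-KO replicate 2 when the tooth-rich members were left out too. The difference in share at full depth ranged from -1.81 to 0.45 points with a library left out. Its direction turned with WT replicate 2 (0.45) or Din-KO replicate 1 (0.29) left out. After thinning the difference was -0.34 points, and both Din-KO shares lay below both WT shares. The count of other mural genes above the mesenchyme was 8 of the 20 measured in members with 0 or 1 Rgs5 UMI. Xist was at 0.18 and Tsix at 0.055 among the Xist members, and Ibsp at 0.55 without endothelial transcripts, in place of negative log2 fold changes. Xist UMIs chose the Xist members, so the shift of Xist was set by that choice. The cause of the other shifts was not tested. Of 386 values of 21 named genes 292 kept their direction and side of the threshold, 91 kept their direction and passed it, and 3 turned. Settings by Rgs5 count, tooth-rich and interferon-rich members were chosen after seeing the data. The medians of interferon and p53 genes stayed above 0 in all alternatives run. With 2 libraries a genotype and 48 to 92 members each, 10070 of 32285 genes had enough counts to be tested.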
